A study of Mus musculus with 24 samples.

Results

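The adult mouse globin chains are made from 4 genes, Hba-a1 and Hba-a2 for the alpha chain and Hbb-bs and Hbb-bt for the beta chain. Every protein-protected site (PPS) that overlapped the body of one of these 4 genes on the gene's own strand was taken from the lists of 3 days. This gave 68 PPSs out of 460777, with 13 on day 0, 25 on day 2 and 30 on day 4. The 4 genes are among 9550 protein-coding genes that carried an exonic PPS outside the length class of 20 to 40 nt on at least 1 day, of 21938 annotated.

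The PPSs come from protein interaction profile sequencing (PIP-seq) of MEL cells, a mouse erythroleukemia line arrested as proerythroblasts that matures along the red cell lineage when grown in DMSO. Cells were taken uninduced (day 0) and after 2 and 4 days in 2% DMSO, as 2 biological replicates per day. Each replicate was split into 4 libraries, footprinting or structure-only, each digested with an ssRNase (RNase ONE, which cuts single-stranded RNA, 100 U/ml) or a dsRNase (RNase V1, which cuts paired RNA, 2.5 U/ml), which makes 24 libraries in 12 groups of 2. In footprinting samples the cross-linked proteins were still in place during digestion and in structure-only samples they had been removed, and a PPS is a stretch enriched in the former. The cells of all groups are of a single line, so no group stands for an animal.

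Each day's list merges the calls of 4 call sets, both nucleases in both replicates, and names the calls merged into each PPS. A replicate or nuclease is counted here for a PPS when it gave at least 1 of those calls. The lists hold positions and scores but no read counts, so the depth behind a single PPS is unknown, and more transcript and more protection of each transcript cannot be told apart. With 2 replicates per day the smallest two-sided p of an exact permutation test is 0.333, so no test is given, and a change is described by the lowest and highest difference over the 4 pairs of a later and an earlier replicate.

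Adult hemoglobin joins alpha and beta globin chains around heme, the iron-holding group that binds oxygen. Globin mRNAs come to make up most of the message of a maturing red cell precursor and are known for their long life. In human alpha globin mRNA that stability has been tied to a C-rich stretch of the 3′ UTR and the poly(C)-binding proteins that hold it. The erythroid marker genes Gata1, Klf1, Tal1, Epor, Tfrc, Alas2, Slc4a1, Ermap and Nfe2 each carried exonic PPSs on at least 1 day. Among markers of other blood cells the megakaryocyte genes Itga2b and Pf4 did, while Cd3e, Cd3g, Cd79a, Ms4a1, Mpo, Elane, Itgam and Csf1r had 0% of their exonic nt covered on all 3 days.

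In the mm10 genome the alpha genes lie on the plus strand of chromosome 11, Hba-a1 (ENSMUSG00000069919.7) at chr11:32283511-32284465 and Hba-a2 (ENSMUSG00000069917.7) at chr11:32296489-32297298. The beta genes lie on the minus strand of chromosome 7, Hbb-bt (ENSMUSG00000073940.3) at chr7:103812524-103813996 and Hbb-bs (ENSMUSG00000052305.6) at chr7:103826534-103828096. Each has 3 coding exons and 2 introns, with a CDS of 429 nt in the alpha genes and 444 nt in the beta genes. Annotated starts differ between sources. GENCODE gives Hba-a1 a 5′ UTR of 196 nt and Hba-a2 one of 35 nt, whereas the RefSeq start of Hba-a1 is 161 nt further downstream, at position 32283672.

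The copies of each pair are close to identical, and this bounds what can be said of a single gene. Over the 955 nt of the Hba-a1 body 954 nt matched Hba-a2, and the only difference was C381T in the CDS, counted from the A of the start codon and written with the Hba-a1 base first. Between Hbb-bs and Hbb-bt the CDS also differed at a single place, C417T with the Hbb-bs base first, and exon 2 was identical over 223 nt. The 3′ UTRs of the beta genes were less alike, with 94 of 131 nt of Hbb-bs matching Hbb-bt, and the 5′ UTRs shared 44 of 53 nt. A stretch of 50 nt, the read length, found in both copies covered 99.9% of the Hba-a1 body and 74.5% of the Hbb-bs body. Reads with up to 10 places in the genome were kept upstream, so a fragment from either alpha gene could be placed on both.

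The stretches around the start codon show both features of the families, an alpha pair that reads alike and a beta pair that differs just upstream of the codon. They are given 5′ to 3′ on the coding strand with the start codon in capitals, since a PPS covered this codon in 3 of the 4 genes.
Hba-a1, chr11:32283692-32283721: actcaggaagaaaccATGgtgctctctggg
Hba-a2, chr11:32296509-32296538: actcaggaagaaaccATGgtgctctctggg
Hbb-bs, chr7:103827861-103827890: ccagaaacagacatcATGgtgcacctgact
Hbb-bt, chr7:103813855-103813884: tcagaaacagacatcATGgtgcacctgact

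Another place carried sites again and again, the end of exon 2 and the start of intron 2. A PPS crossed it on all 3 days in both beta genes and on days 2 and 4 in both alpha genes. The 30 nt around it are shown with the first 2 nt of the intron in capitals.
Hba-a1, chr11:32284114-32284143: cccgtcaacttcaagGTatgcgctgggacc
Hba-a2, chr11:32296931-32296960: cccgtcaacttcaagGTatgcgctgggacc
Hbb-bs, chr7:103827433-103827462: cctgagaacttcaggGTgagtctgatgggc
Hbb-bt, chr7:103813424-103813453: cctgagaacttcaggGTgagtctgatgggc

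On day 0 the globin genes held few sites, and most rested on a single call. Hba-a1 had 5 PPSs, Hbb-bs 5, Hbb-bt 3 and Hba-a2 0. Of these 13 PPSs, 11 came from a single call, 6 were 20 to 40 nt long and 1 had calls of both replicates. That last site lay at the start of exon 3 of Hba-a1, chr11:32284263-32284335, in CDS, with a dsRNase call in each replicate and a score of 16.1. The highest score of the day, 21.7, belonged to the Hba-a1 site at chr11:32283661-32283748, which ran from the 5′ UTR over the start codon and had an ssRNase and a dsRNase call, both of replicate 2.

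By day 2 the sites had become more numerous and better replicated. Hba-a1 had 7 PPSs, Hba-a2 5, Hbb-bs 6 and Hbb-bt 7, and 16 of the 25 had calls of both replicates. Among all PPSs of the day 23.2% had calls of both replicates, against 64.0% in the globin genes, and on day 0 the shares were 26.2% and 7.69%. The strongest site of day 2 was chr11:32283672-32283848 in Hba-a1, with a call from each of the 4 call sets and a score of 48.5, higher than 99.5% of the day's list. It began at the RefSeq start of the gene and ran over the start codon, the rest of exon 1 and 47 nt of intron 1.

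On day 4 the count reached 30, with 5 PPSs in Hba-a1, 5 in Hba-a2, 9 in Hbb-bs and 11 in Hbb-bt. Calls of both replicates were behind 17 of them (56.7%), against 29.5% of all PPSs of that day. The strongest was chr11:32296903-32297088 in Hba-a2, made of 6 calls from all 4 call sets, with a score of 83.2, higher than 99.9% of the list. It held the whole of intron 2 and 52 nt of the adjoining exons 2 and 3. The alpha sites were fewer than the beta sites but longer in Hba-a1, where the median length was 238 nt, against 95 nt in Hbb-bs, 72 nt in Hbb-bt and 56 nt among all PPSs of the day.

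**Figure D1:**
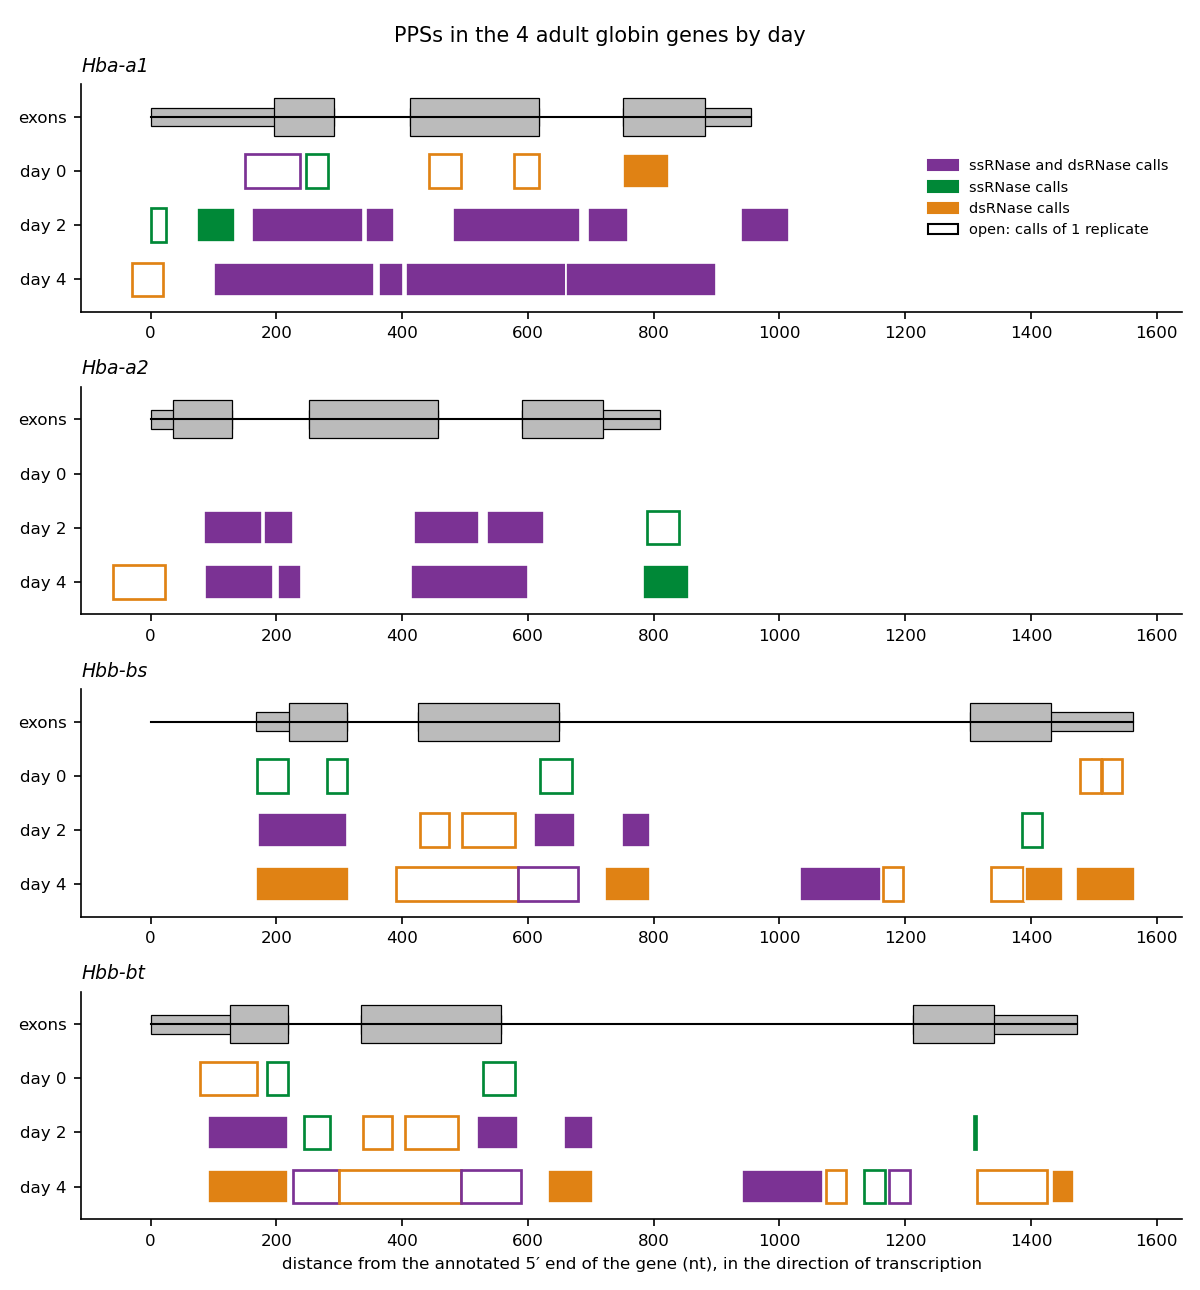
Position of every PPS in the 4 genes on each day, as distance in nt from the GENCODE 5′ end of the gene, with exons of the transcript with the longest CDS in gray (tall where coding). Color gives the nuclease of the calls, filled boxes have calls of both replicates and open boxes of 1 replicate. All day 0 sites but 1 are open, Hba-a2 had none that day, and on day 4 the boxes of Hba-a1 ran almost without a gap from the 5′ UTR into the 3′ UTR.

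Exonic coverage, the share of a gene's exonic nt that lie in a PPS, put these changes on a scale that can be set against other genes. PPSs of 20 to 40 nt, the length of a ribosome footprint, were left out of it. The coverage of a replicate counts the whole of each merged PPS to which it gave a call, so replicates that share a PPS also share its ends. Exonic here means an exon of any annotated transcript, which in the alpha genes takes in most of intron 1 through a retained-intron transcript.

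In Hba-a1 the coverage was 15.1% and 19.8% in the 2 replicates of day 0, 53.4% in both of day 2, and 76.8% and 74.4% on day 4. The replicates of the 3 days did not overlap, and the gain from day 0 to day 4 was 54.6 to 61.7 percentage points over the 4 replicate pairs. In Hba-a2 it was 0% in both replicates of day 0, 33.0% and 29.985% on day 2, and 29.985% and 26.5% on day 4. The rise of Hba-a2 was thus present by day 2, and the difference from day 2 to day 4 ran from -6.45 to 0 points. With PPSs of 20 to 40 nt kept its merged coverage was 33.0% on day 2 and 35.5% on day 4.

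Hbb-bs stood at 6.51% and 3.91% on day 0, 29.6% and 34.5% on day 2, and 78.9% and 38.8% on day 4. All replicates of a later day were above those of an earlier day, but the day 4 replicates differed more from each other than the replicates of day 2 did from those of day 0. Hbb-bt gave 0% and 17.2% on day 0, 30.3% and 36.3% on day 2, and 65.4% and 18.1% on day 4. Its replicate 2 of day 4 was below both replicates of day 2 and 0.853 points above replicate 2 of day 0, so the day 4 level of Hbb-bt rests on replicate 1.

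In all 4 genes both replicates of day 2 were above both of day 0. Among all 9550 genes this held for 22.3%. For day 4 against day 0 it also held in 4 of 4 genes, with 30.8% of all genes, and for day 4 against day 2 in 2 of 4, Hba-a1 and Hbb-bs, with 33.8% of all genes. With both replicates merged the median gain of the 4 genes was 28.8 points by day 2 and 49.5 points by day 4, while the median change over all genes was -0.454 and 0 points. Only 1 gene of the 9550 gained more than Hbb-bs from day 0 to day 4 (68.5 points), 11 gained more than Hba-a1 (50.9), 12 more than Hbb-bt (48.2) and 58 more than Hba-a2 (29.985). These ranks were not matched for exonic length. The globin genes have 667 to 812 exonic nt, so a PPS of a given length adds more points in them than in a longer gene. Since each pair shares most of its sequence, these are not 4 independent genes. The median gain by day 2 was 21.3 points with PPSs of 20 to 40 nt kept. It turned to -0.346 points over exonic positions in no 50-nt stretch shared between the copies, of which each alpha gene has 1. The median gain by day 4 was 27.5 points when replicate 1 of day 4 was left out, 32.7 points when only PPSs with calls of both replicates were kept and 15.7 points with ssRNase calls alone.

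**Figure D2:**
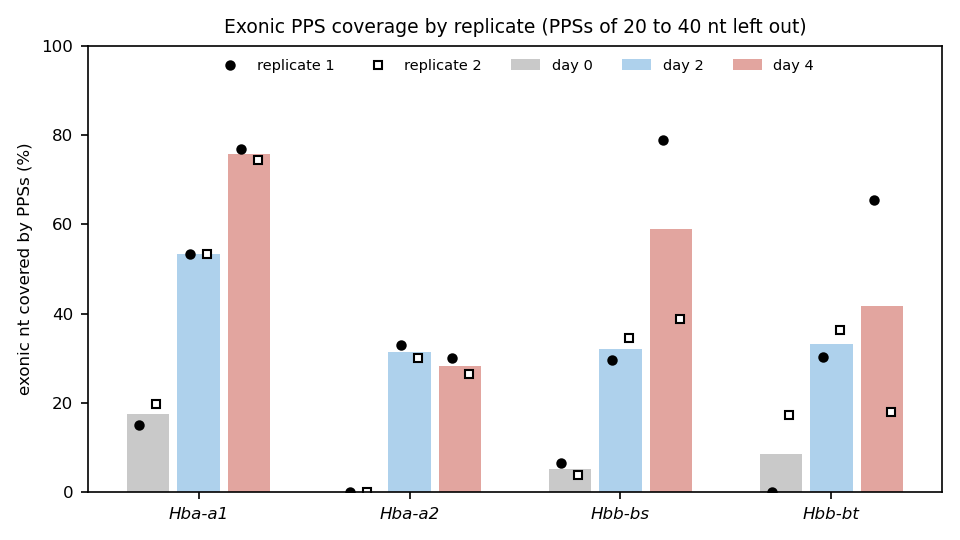
Exonic nt covered by PPSs (%, PPSs of 20 to 40 nt left out) in each gene and day. Bars are means of 2 replicates, circles replicate 1 and squares replicate 2. Replicates lie close together on days 0 and 2, with Hbb-bt on day 0 the exception, and far apart on day 4 in both beta genes.

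The gain was spread unevenly along the transcripts. In the CDS of Hba-a1 the merged coverage went from 38.5% on day 0 to 55.9% on day 2 and 100% on day 4. The CDS of Hba-a2 was at 0%, 27.3% and 22.1%, that of Hbb-bs at 6.76%, 58.8% and 91.7%, and that of Hbb-bt at 16.2%, 59.7% and 76.8%. In replicate 2 the beta CDS was lower on day 4 than on day 2. It went from 48.4% to 30.2% in Hbb-bs and from 49.3% to 20.7% in Hbb-bt. Exon 2, the central coding exon that encodes most of the heme pocket, was covered to 99.6% in both beta genes on day 4, but replicate 2 of that day had no PPS in exon 2 of either gene. In Hba-a1 exon 2 was covered to 100% on day 4 in both replicates, and its identical counterpart in Hba-a2 to 20.98%.

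The 5′ UTR carried sites before induction in 3 of the genes. In Hbb-bs it was covered to 94.3% on days 0 and 2 and 100% on day 4. In Hbb-bt, whose annotated 5′ UTR is longer, the figures were 38.6%, 28.3% and 27.6%, and in Hba-a1 23.5%, 48.5% and 58.7%. On day 0 the value of Hbb-bs came from a single ssRNase call of replicate 1, with replicate 2 at 0%. That of Hbb-bt came from a single dsRNase call of replicate 2, with replicate 1 at 0%. The rise in Hba-a1 lay wholly upstream of its RefSeq start, position 32283672. From there to the start codon its 5′ UTR was fully covered on each day, on day 0 by calls of replicate 2 alone. The sites were chr11:32283661-32283748 on day 0, chr11:32283672-32283848 on day 2 and chr11:32283612-32283865 on day 4. On day 4 the Hbb-bs site over the 5′ UTR began at 103827928, the annotated first base of the transcript, and ended 2 nt inside intron 1, with dsRNase calls of both replicates. In Hba-a2 the 5′ UTR was at 0% until day 4, when a site of 83 nt with 1 dsRNase call covered 65.7% of it.

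The start codon lay in a PPS on day 0 in Hba-a1 and Hbb-bt, by calls of replicate 2 alone, and on days 2 and 4 in Hba-a1, Hbb-bs and Hbb-bt, by calls of both replicates. It lay in none on any day in Hba-a2, whose 30 nt around the codon read the same as those of Hba-a1. Among all genes 19.3% had the start codon in a PPS on day 0, 19.1% on day 2 and 15.7% on day 4. The stop codon was uncovered in all 4 genes on days 0 and 2 and covered on day 4 in Hba-a1, Hbb-bs and Hbb-bt, where Hbb-bt had it in replicate 1 alone. The share of all genes with a covered stop codon was 17.6%, 15.1% and 18.5%.

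In the beta genes the 3′ UTR carried PPSs outside the length class of 20 to 40 nt on day 4 only. Without PPSs of 20 to 40 nt it was at 0% on days 0 and 2 in both, and on day 4 at 84.7% in Hbb-bs, in both replicates, and at 63.6% in Hbb-bt, in replicate 1 alone. A further site of 34 nt with dsRNase calls of both replicates lay in the Hbb-bt 3′ UTR on day 4, and with it the coverage was 89.4% from both replicates merged and 25.8% in replicate 2. Sites of 32 and 33 nt, each from 1 dsRNase call of replicate 1, lay in the Hbb-bs 3′ UTR on day 0. With PPSs of all lengths kept, the merged coverage of that 3′ UTR was 49.6%, 0% and 84.7% on the 3 days. In Hba-a1 the 3′ UTR was at 0% on day 0, 21.6% on day 2 and 24.3% on day 4, when it was the least covered part of the mature transcript. In Hba-a2 it was 0%, 22.2% and 30%. The sites of Hba-a1 on day 2 and of Hba-a2 on days 2 and 4 lay across the annotated end of the gene, and that of Hba-a1 on day 4 across the stop codon.

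The most C-rich 30 nt of the alpha 3′ UTR, identical in both genes, begin at its base 34 and hold 15 C. They are shown because the matching region of the human mRNA is where poly(C)-binding proteins are known to sit, with runs of 3 or more C in capitals.
Hba-a1, chr11:32284425-32284454: CCCttcttctctCCCttgcacctgtacctc
Little of this stretch lay in a PPS, which without read counts does not show that no protein was there. In Hba-a1 only the day 2 PPS at chr11:32284450-32284525 reached into it, over its last bases. In Hba-a2 the same stretch, chr11:32297242-32297271, lay in no PPS on any day. The coding strand of the 3′ UTR of all 4 genes was searched for short words that RNA-binding proteins are known to favor. The background was the last stretch of equal length of all annotated 3′ UTRs at least as long, 19699 windows of 74 nt for Hba-a1, 19391 of 90 nt for Hba-a2, 18504 of 131 nt for Hbb-bs and 18486 of 132 nt for Hbb-bt. Since longer windows hold more words, shares are given from the shortest to the longest window. None of the 4 genes held the C-only word CCCCCC, which 0.888% to 1.82% of the background windows held. Nor did they hold CCCTCC (2.16% to 4.79% of windows) or its shifted form CCTCCC (2.52% to 5.18% of windows). The same went for CCTTCC (2.54% to 5.26%), the Pumilio word TGTANATA with N for any base (3.32% to 5.42%) and GTGTG (8.25% to 16.1%). The polyadenylation signal AATAAA was present in Hba-a2, Hbb-bs and Hbb-bt and in 62.5% to 64.7% of the windows, and was not found in the shorter annotated 3′ UTR of Hba-a1. A missing word says only that these letters are not in these windows.

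Introns gained coverage along with exons. On day 0 a PPS touched an intron at 2 of 13 sites (15.4%), on day 2 at 13 of 25 (52.0%) and on day 4 at 21 of 30 (70.0%). Over the PPSs in all protein-coding gene bodies the shares were 51.7%, 56.6% and 54.8%, so the globin genes were below that level on day 0 and above it on day 4. In coverage, again without PPSs of 20 to 40 nt, intron 2 of Hba-a1, of 134 nt, was covered to 0%, 90.3% and 99.3%, and intron 1, of 122 nt, to 0%, 75.4% and 58.2%. The fall of intron 1 from day 2 to day 4 turned into a rise with the short PPSs kept, from 75.4% to 88.5% in Hba-a1 and 75.4% to 82.8% in Hba-a2. In the long intron 2 of the beta genes, of 654 nt, coverage was 3.21%, 11.01% and 35.3% in both genes. With the short PPSs kept the day 4 values were 40.2% in Hbb-bs and 50.6% in Hbb-bt. Intron 1 of Hbb-bt reached 92.2% on day 4 and that of Hbb-bs 32.7%. Both values rest on replicate 1, since replicate 2 of that day gave 0% in Hbb-bt and 1.77% in Hbb-bs.

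Sites that crossed a splice site by more than 2 nt numbered 2 of 13, 8 of 25 and 9 of 30 on the 3 days, against 6.02%, 4.61% and 5.75% of the PPSs in all protein-coding gene bodies. Sites that instead ended within 2 nt of a splice site numbered 4 of 13 on day 0 (30.8%), 2 of 25 on day 2 and 2 of 30 on day 4 (6.67%). Among the PPSs in all gene bodies the latter share was 9.42%, 7.23% and 8.64%. Among those that touch an exon, as all 13 globin sites of day 0 did, it was 16.7%, 14.5% and 16.5%. The background shares were not matched for intron length, and beta sites with the same ends in both copies count in each. No PPS lay on the opposite strand of any of the 4 gene bodies on any day.

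**Figure D3:**
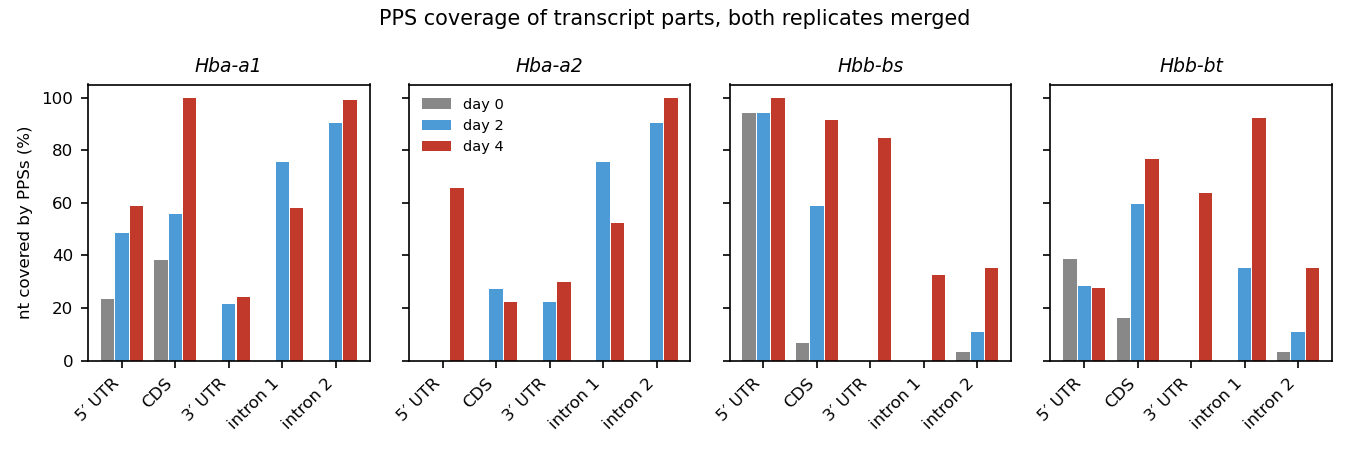
Share of nt (%) of the 5′ UTR, CDS, 3′ UTR and both introns of each gene that lay in a PPS, by day, with the calls of both replicates and nucleases merged and PPSs of 20 to 40 nt left out. The beta 3′ UTRs were at 0% until day 4, and the alpha introns were at 0% on day 0 and above 52% from day 2.

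The nucleases contributed unequally, and the order of the alpha and beta genes changed between days. On day 4 dsRNase calls made up 28 of 35 calls in the beta genes (80.0%) and 14 of 27 in the alpha genes (51.9%), with 52.5% among the calls of all PPSs that day. On day 2 the shares were 47.6%, 40% and 27.2%. On day 0 the order of the gene pairs was the other way round, with 3 of 8 calls in the beta genes (37.5%) and 5 of 7 in the alpha genes (71.4%), and 38.4% among all PPSs. The ssRNase calls of the beta genes on day 4 all came from replicate 1, and replicate 2 of the ssRNase gave 0 calls in either beta gene, although it gave 4 PPSs a call in the alpha genes and 54229 calls over the whole list.

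In coverage, dsRNase calls of Hbb-bs gave 0% in both replicates of day 0 and 78.9% and 38.8% on day 4. The ssRNase calls gave 6.51% and 3.91% on day 0 and 8.33% and 0% on day 4, a difference of -6.51 to 4.43 points over the replicate pairs. The same held for Hbb-bt, where dsRNase calls gave 0% and 12.9% on day 0 and 65.4% and 18.1% on day 4, and ssRNase calls 0% and 4.27%, then 9.10% and 0%. In Hba-a1 both nucleases showed higher coverage on day 4, from 0% and 10.8% to 74.4% and 26.1% with ssRNase and from 15.1% and 19.8% to 76.8% and 48.3% with dsRNase. In Hba-a2 they went from 0% to 26.5% in both ssRNase replicates and to 25.9% and 22.5% with dsRNase. On day 2 the ssRNase replicates of the beta genes stood further apart, at 23.6% and 5.08% in Hbb-bs and 23.8% and 6.12% in Hbb-bt. Neither the difference between the nucleases nor that between the alpha and beta genes was tested.

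**Figure D4:**
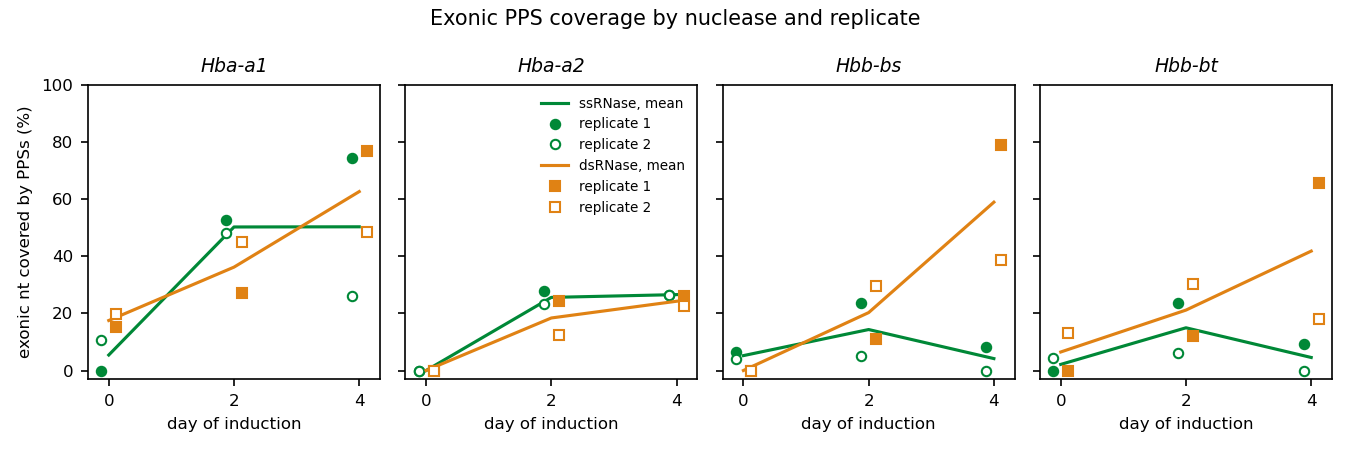
Exonic coverage (%) by day for PPSs with calls of ssRNase (green circles) or dsRNase (orange squares), filled for replicate 1 and open for replicate 2, with lines through the mean of 2 replicates. On day 4 the ssRNase values of the beta genes lay between 0% and 9.10%, below their dsRNase values, while in the alpha genes the values of both nucleases were above those of day 0.

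Because the copies share their sequence, each site was carried over to the other copy through an alignment and the site there was looked up. In the beta pair 22 of 41 PPSs had a site with exactly the same ends in the other gene on the same day, and in 20 of these score and calls were the same too. All 22 were among the 25 beta PPSs that lie wholly in stretches of 50 nt found in both genes. An example is the intron 2 site of day 4, chr7:103826936-103827064 in Hbb-bs and chr7:103812927-103813055 in Hbb-bt, both of 129 nt with a score of 23.7 and calls of ssRNase replicate 1 and both dsRNase replicates. Sites of this kind do not tell which beta gene the RNA came from.

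The alpha pair behaved differently. Of 27 PPSs 26 lay wholly in shared stretches, yet 4 had a counterpart with the same ends, and these were the 4 that lay in an intron alone, with the same score and calls. None of the 12 sites within exons and none of the 11 that joined exon and intron had a counterpart with the same ends. On day 0 Hba-a1 held 5 sites and Hba-a2, with the same sequence at each of these places, held 0. On day 2 the site chr11:32283992-32284193 of Hba-a1 ended at the same intron 2 base as chr11:32296908-32297010 of Hba-a2 but was 202 nt long against 103 nt, and on day 4 the identical exon 2 was covered to 100% in Hba-a1 and 20.98% in Hba-a2. The unequal exonic sites of Hba-a1 and Hba-a2 thus lie in sequence that does not tell the genes apart, and where this inequality arose was not tested.

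**Figure D5:**
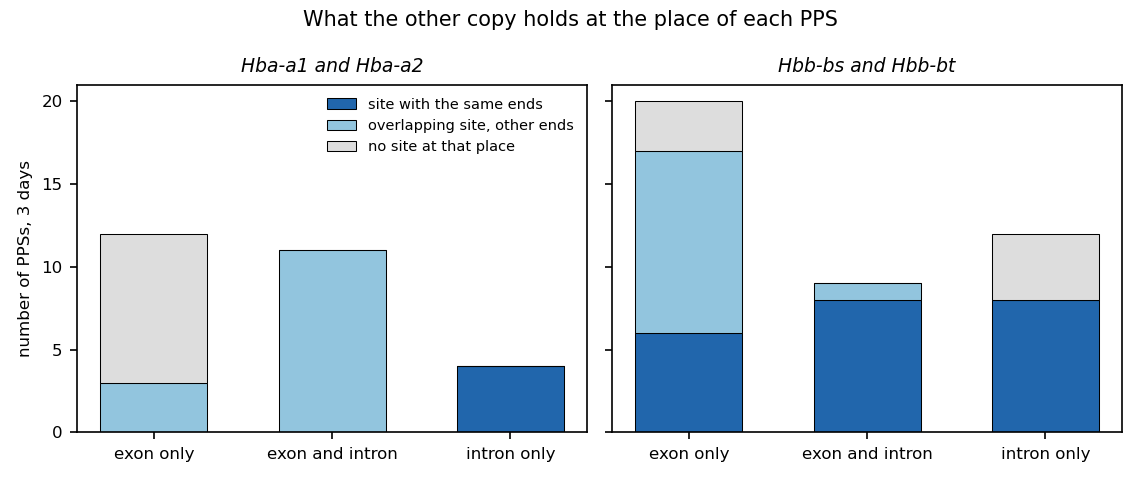
Number of PPSs over the 3 days by place in the transcript, divided by what the other copy holds at the aligned place on the same day. All 4 alpha sites within introns had a counterpart with the same ends and no exonic alpha site did, whereas 22 of 41 beta sites did.

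The beta genes can be told apart in part. No 50-nt stretch was shared over 289 exonic nt of Hbb-bs and 273 of Hbb-bt, which lie at the gene ends and take in both 3′ UTRs. There the coverage of Hbb-bs was 13.1% and 0% in the replicates of day 0, 12.5% in both of day 2 and 61.6% in both of day 4. That of Hbb-bt was 0% and 12.8%, then 8.06% in both, then 48.4% and 7.69%. A gain by day 4 was thus present in both replicates of Hbb-bs and in replicate 1 of Hbb-bt, while on day 2 the replicates of each gene lay between those of its day 0, so no change by day 2 can be read there. With PPSs of all lengths kept and replicates merged, Hbb-bs had 35.6%, 17.0% and 61.6% on the 3 days. Hbb-bt then had 12.8%, 8.06% and 60.8%. The day 0 site of 32 nt in the Hbb-bs 3′ UTR, which has no counterpart in Hbb-bt, shows how far the genes differ there. The last 30 nt of the site, in the direction of transcription, are given with the aligned 30 nt of Hbb-bt. The 10 differing bases are in capitals, and both stretches end in the polyadenylation signal.
Hbb-bs, chr7:103826552-103826581: cAtttgAAAatctGTcttCtGAcAaataaa
Hbb-bt, chr7:103812545-103812574: cCtttgGGCatctAGcttTtATcTaataaa

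All 13 PPSs of day 0 overlapped a PPS of day 4 in the same gene by at least 1 nt, and 8 of the 30 of day 4 (26.7%) overlapped one of day 0. Among the PPSs in all protein-coding gene bodies the shares were 50.5% and 46.2%. Of the 25 of day 2, 23 (92%) overlapped one of day 4, and 20 of 30 (66.7%) the reverse, against 48.9% and 52.2% in all gene bodies. Overlap grows with the part of a gene that is covered, and on day 4 the merged exonic coverage of Hba-a1, Hbb-bs and Hbb-bt was 65.4% to 78.9%. Asking for an overlap of at least 50% of the shorter PPS left the first 2 counts at 13 and 8. In Hbb-bs all 311 exonic nt covered on day 2 were covered on day 4, and 293 further nt were covered on day 4 alone. In Hba-a1 97 nt were covered on all 3 days, in Hbb-bs 78 nt and in Hbb-bt 107 nt.

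The sites of the alpha cluster reached beyond the adult genes. From Hba-x to Hbq1a, chr11:32276400-32300873, the plus strand held 5 PPSs on day 0, all in Hba-a1. On day 2 it held 40, with 12 in the adult genes, 7 in other annotated genes and 21 in none, and on day 4 it held 36, with 10, 7 and 19. The beta cluster from Hbb-bt to Hbb-y held 8, 13 and 22, of which only 2 on day 4, just downstream of Hbb-bs, lay outside the adult genes. Among the other globins, Hbq1b, a theta globin relative between the alpha genes, rose from 0% on day 0 to 31.3% and 9.79% on day 2 and 48.0% and 38.2% on day 4. Hbq1a rose from 0% to 13.6% and 11.9%, then 15.2% and 12.7%. The embryonic genes Hba-x, Hbb-y and Hbb-bh1, and Hbb-bh0 and Hbb-bh2, had 0 PPSs on all days.

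Of 20 genes listed for hemoglobin production, which make heme, import iron or control and hold globin mRNA, 13 had both replicates of day 4 above both of day 0 and 1 had them below, against 30.8% of all genes in the upward and 25.4% in the downward direction. For day 2 against day 0 the counts were 10 above and 5 below, against 22.3% and 30.4% of all genes. From day 0 to day 4 the median gain of the list was 11.1 points, against 49.5 points in the 4 globin genes. Each listed gene has more exonic nt than the globin genes. The largest gains were those of Slc25a37, the mitochondrial iron importer mitoferrin (20.6% on day 0 and 73.9% on day 4), the transcription factor Tal1 (22.8% and 58.4%) and Abcb10, a mitochondrial transporter needed for heme synthesis (9.01% and 40.9%). The heme enzyme gene Cpox fell, from 18.7% to 12.6%. For Pcbp1, which encodes a poly(C)-binding protein, coverage was 35.6% on day 0 and 29.1% on day 4, with overlapping replicates. Its relative Pcbp2 stood at 20.8%, 12.3% and 33.1% on days 0, 2 and 4, with both replicates of day 2 below and both of day 4 above those of day 0.

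The genes whose 6 replicate values lay nearest to the mean of the 4 globins, among 9199 others, were Ache, Mrfap1, Ppox, Tspoap1 and Irs2, with root mean square differences of 4.497, 8.37, 9.24, 10.2 and 10.4 points. Ache, which encodes acetylcholinesterase, an enzyme also found on the red cell surface, had 10.3%, 42.2% and 62.1% of its exonic nt covered on days 0, 2 and 4. The globins themselves were 7.82 (Hbb-bs) to 18.8 points (Hba-a1) from their own mean. Ppox, the enzyme before ferrochelatase in heme synthesis, is also in the hemoglobin list and had 20.4%, 38.3% and 49.0%.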

How the data were processed

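PIP-seq reads were trimmed with cutadapt 1.2.1 and mapped to mm10 with TopHat2 2.0.10, as the submitters' processing notes and the study's methods state, with up to 10 hits kept per read. The authors called PPSs with a modified CSAR, a Poisson model of footprinting against structure-only libraries at a false discovery rate of 5%, and deposited 1 merged list per day with a score for each PPS. Scores start at 5.4, and how the scores of merged calls were combined is not given in the sources used here. Reads from identical copies can be placed on both, and how this bears on the number of sites was not tested.

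From these lists PPSs were assigned to GENCODE M21 gene bodies of the same strand and to parts of the transcript with the longest CDS. Exonic coverage left out PPSs of 20 to 40 nt, as the study did. Similar genes had at least 300 exonic nt and a symbol other than a Gm or RIKEN number. Of 21 genes listed for hemoglobin production, Ahsp was not matched in the annotation. Some marker genes are not reported here. A score percentile is the rank of a PPS in its day's list. Copies were aligned globally with biopython 1.88 on GRCm38.p6, with 1000 nt of flank, and RefSeq starts come from that build. Values were computed in Python 3.11.15 with numpy 2.4.6 and pandas 2.3.3 and plotted with matplotlib 3.10.9. The interval code recovered 200 of 200 planted sites in simulated data. The named genes were the 4 members, 7 other globins, the 3 largest gains and each fall in the hemoglobin list, with Pcbp1 and Pcbp2 added after their values were seen, and the 5 nearest genes. The members and lists were chosen with earlier results of these data known. Alternatives were the length class, calls of both replicates, a single nuclease, a score of at least 10, the top 25% of scores, leaving out a replicate, another exon set and positions unshared between copies.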

Additional observations from a re-analysis of the deposited data

How the results depend on the processing

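The days share replicate numbers, and the labels do not say that a number marks a shared culture. With the replicate number as a replicate block, added after seeing the data, the mean of the differences within numbers had a median over the 4 genes of 29.2 percentage points by day 2 and 43.4 by day 4. By day 4 the median was 63.6 points within replicate 1 and 30.7 within replicate 2, and Hbb-bt gave 65.4 and 0.853 points. Coverage by replicate uses whole merged PPSs, whose ends may come from a call of the other replicate, and the lists give no depth. The median gain of the 4 genes by day 2, 28.8 percentage points, was 21.3 points with PPSs of 20 to 40 nt kept. It was -0.346 points over exonic positions in no 50-nt stretch shared between copies, where Hbb-bs gave -0.692 and Hbb-bt -4.76 points and each alpha gene has a single such position. By day 4 the median gain, 49.5 points, was 15.7 points with ssRNase calls alone, under which Hbb-bs gave -2.08 points. Leaving out 1 replicate gave 23.3 to 36.1 points for day 2 and 27.5 to 63.6 points for day 4. The other alternatives moved neither median by more than the standard deviation of replicates, combined over both days. That was 5.80 points for day 2 and 27.7 points for day 4.

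The number of PPSs on day 0, 13, was 7 without those of 20 to 40 nt, 1 with both replicates required, 7 with ssRNase and 7 with dsRNase calls alone, 6 with a score of at least 10, 2 in the top 25% of scores, and 5 to 9 with a replicate left out. On day 2 it was 25 and with both replicates required 16, and 20 to 21 with a replicate left out. On day 4 it was 30, with both replicates required 17, with ssRNase calls alone 15, in the top 25% of scores 15, and 19 to 28 with a replicate left out. Counting sites with the same ends in both copies once, a choice made after seeing the data, gave 11, 20 and 24. Over single genes 90 of 96 values under the alternatives planned for them were above 0. These alternatives use overlapping sets of PPSs, so the values are not independent. Apart from Hbb-bs by day 4 with ssRNase calls alone, those not above 0 were all over positions unshared between copies. Over such positions no gene gained by day 2. Fewer calls or positions remain under each narrower choice. Why the results differed between alternatives was not tested.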
